A study of Homo sapiens with 8 samples.

Results

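The 10 genes described here are those of eIF5A hypusination and of polyamine synthesis and its control: EIF5A, EIF5A2, DHPS, DOHH, ODC1, AMD1, SRM, SMS, SAT1 and OAZ1. They were chosen by name from what is known of the pathway, though with earlier results of these data known. Each was read through probe sets annotated to that gene alone. The array carried such probe sets for 19774 genes, and 14517 genes reached the level needed for a test, among them all 10 members. Together they had 24 probe sets of their own, and the brightest of each gene over the 8 arrays was used, with the others as a check.

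The arrays compared human neuroblastoma cells after 48 h in 2.5 µM ciclopirox with cells given vehicle for the same time. The study's title names the histone demethylase JMJD2B and Myc signalling as what ciclopirox was used to target. There were 4 established lines with 1 ciclopirox and 1 vehicle array each, all in RPMI medium: SKNAS (labelled c-Myc), NB1691 and SKNBE2 (both labelled N-Myc), and SKNAS/shHIF1a, a stable HIF1A knockdown made from SKNAS. The labels do not say whether the knockdown line is a clone or a pool, and they name no control hairpin line.

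Values are log2 array signals, so a difference of 1 is a doubling of signal, and the level of one gene is not set against that of another. HIF1A stood at 11.09 with ciclopirox and 11.71 with vehicle in SKNAS/shHIF1a, against 11.94 and 12.25 in the parent line. The knockdown line was thus lower by 0.69 ± 0.21 (SE), with an adjusted p of 0.257 in the limma fit. SKNAS/shHIF1a is labelled N-Myc, while its MYC level of 9.23 and 9.86 (ciclopirox and vehicle) lay near the 9.10 and 10.16 of SKNAS. MYC was 2.66 to 3.28 on the NB1691 and SKNBE2 arrays. MYCN was 5.65 and 5.41 in SKNAS/shHIF1a (ciclopirox and vehicle), against 3.36 and 2.77 in SKNAS. The knockdown line was thus higher than its parent by 2.47 ± 0.24 (SE, limma adjusted p = 0.00928). For HIF1A and MYCN alike, the 2 differently treated arrays of a line were its only replicates in the fit. The SE and p therefore do not measure the spread between cultures or clones. On the NB1691 and SKNBE2 arrays MYCN was 11.77 to 12.53. Of 11 noradrenergic neuroblastoma markers on the array, 10 or 11 were above the level filter on every array. The blood cell marker PTPRC was also high in the SKNAS-derived lines, at 6.33 to 11.53 (6.33 and 10.42 with ciclopirox, 9.57 and 11.53 with vehicle), against 3.03 to 3.29 in the others. The 5 lymphoid and myeloid markers on the array had medians of 2.78 to 3.16.

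eIF5A is a translation factor that helps the ribosome through difficult stretches of peptide and at termination, and it works once one of its lysines has become hypusine. Deoxyhypusine synthase (DHPS) transfers part of spermidine to that lysine, and deoxyhypusine hydroxylase (DOHH), an iron enzyme, finishes the residue. Ciclopirox is an iron chelator known to inhibit DOHH. Polyamines begin with ornithine decarboxylase (ODC1), a Myc target and a drug target in neuroblastoma, and much of the pathway's control acts on translation and protein turnover. The arrays measured transcripts only, so protein, hypusine and polyamine amounts were not seen.

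The sequences just before the annotated gene start are shown for 5 members, because Myc proteins bind the E-box CACGTG. They include both eIF5A genes. Of the members, SAT1, EIF5A2 and DOHH had responses that differed most between the SKNAS-derived lines and the others (1.52, 1.14 and -0.69). SRM was shown with a difference of -0.02, while AMD1, at -0.41, was not shown. The choice thus followed no single rule, and the share with an E-box among those shown does not stand for all members. Each sequence is the 250 bases before the start in RefSeq on GRCh38.p14, written 5′ to 3′ along the gene's strand, with CACGTG in capitals.
EIF5A2, chr3:170908638-170908887, minus strand: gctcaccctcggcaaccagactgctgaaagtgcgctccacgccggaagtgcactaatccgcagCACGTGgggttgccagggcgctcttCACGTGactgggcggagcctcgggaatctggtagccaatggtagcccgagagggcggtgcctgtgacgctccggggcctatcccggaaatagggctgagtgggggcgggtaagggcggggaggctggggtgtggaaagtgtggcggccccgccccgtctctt
SRM, chr1:11060019-11060268, minus strand: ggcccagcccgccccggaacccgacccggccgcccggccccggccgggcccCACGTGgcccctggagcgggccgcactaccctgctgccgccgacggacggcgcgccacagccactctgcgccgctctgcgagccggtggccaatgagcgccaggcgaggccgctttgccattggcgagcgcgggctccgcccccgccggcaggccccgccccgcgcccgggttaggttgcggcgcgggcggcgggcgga
DOHH, chr19:3500675-3500924, minus strand: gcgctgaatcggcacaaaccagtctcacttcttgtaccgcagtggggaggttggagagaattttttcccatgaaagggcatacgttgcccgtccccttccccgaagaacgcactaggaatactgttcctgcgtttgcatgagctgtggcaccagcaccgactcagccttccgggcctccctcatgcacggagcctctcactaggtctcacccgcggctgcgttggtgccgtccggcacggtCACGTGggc
EIF5A, chr17:7306749-7306998, plus strand: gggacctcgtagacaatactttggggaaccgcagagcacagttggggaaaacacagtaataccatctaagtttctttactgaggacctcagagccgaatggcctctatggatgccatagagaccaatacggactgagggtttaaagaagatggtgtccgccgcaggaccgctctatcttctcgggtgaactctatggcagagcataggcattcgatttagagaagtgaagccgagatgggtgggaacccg
SAT1, chrX:23782923-23783172, plus strand: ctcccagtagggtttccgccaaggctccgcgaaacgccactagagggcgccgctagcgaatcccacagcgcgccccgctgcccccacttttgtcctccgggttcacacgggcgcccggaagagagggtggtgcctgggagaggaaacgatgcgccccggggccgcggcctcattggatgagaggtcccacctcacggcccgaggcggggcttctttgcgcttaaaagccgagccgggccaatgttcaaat

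EIF5A2 held a pair of E-boxes, whose first bases lay 187 and 162 bases before the start. The E-box of SRM began 199 bases before its start and that of DOHH began 9 bases before it, while the EIF5A and SAT1 sequences held none. RefSeq lists more than one start for some genes, and over all 18 windows of the members, CACGTG was found in 4 of the 10 genes, ODC1 being the one not shown. The ODC1 window that held it lay inside the gene, before a later start, and the window before the gene's first start held none. On the same count, 7.73% of 27305 genes had an E-box in at least 1 window. A count by gene rises with its number of windows, which was 18 for the 10 members and 35116 for the 27305 genes. By window, CACGTG was in 4 of 18, beside 6.34% of all windows. The core hypoxia element ACGTG, which every CACGTG also contains, was found in 6 members and in 21.7% of all genes. By window it was in 6 of 18, beside 18.5% of all windows, and for EIF5A and ODC1 only in a window inside the gene. CCAAT was found in 8 members and in 37% of all genes, and by window in 10 of 18, beside 32% of all windows. Both strands were searched, and a match is a description of the letters only. On the same build, DHPS lies at chr19:12672470-12681880, ODC1 at chr2:10439968-10448327, AMD1 at chr6:110814617-110895713, SMS at chrX:21940709-21994837 and OAZ1 at chr19:2269486-2273488.

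No gene passed the test of ciclopirox against vehicle, so 0 of the 10 members and 0% of the 14517 genes tested were called at an adjusted p of 0.05 in limma with the cell line as a block. The smallest adjusted p of any gene was 0.121, and 2599 genes had an unadjusted p under 0.05. Among the members, 4 were lower with ciclopirox at an unadjusted p under 0.05 (EIF5A, DHPS, SRM and AMD1), where 10.2% of all genes were. Another 2 were higher (EIF5A2 and SAT1), where 7.67% of all genes were. The 4 lower members were lower in every line, as were 16.0% of all genes, and SAT1 was higher in every line, as were 11.8% of all genes. SAT1 was the 1 member whose ciclopirox arrays all lay above its vehicle arrays, which held for 1.06% of all genes. No member's ciclopirox arrays all lay below its vehicle arrays, which held for 1.47%. In these bulk samples, a lower share of cells with a transcript and less of it per cell cannot be told apart. Since nothing in the labels says that the arrays came from separate cultures, and 2 of the 4 lines share an origin, p-values measure the spread between these samples only.

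**Figure D1:**
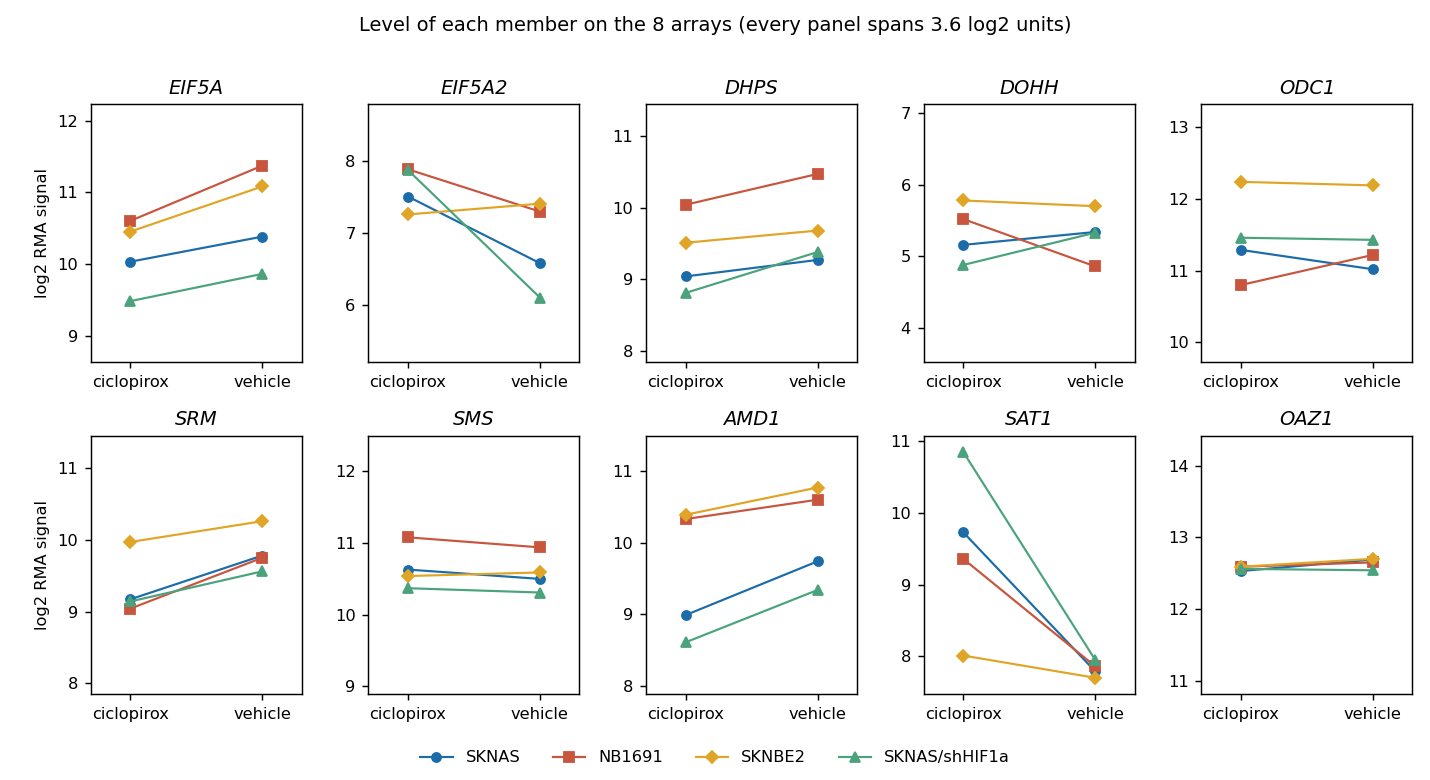
The log2 level of each of the 10 members is plotted for each of the 8 arrays, with each line's ciclopirox array beside its vehicle array. SAT1 lies between 7.70 and 7.95 on the vehicle arrays and between 8.01 and 10.85 on the ciclopirox arrays, while OAZ1 stays between 12.53 and 12.70 on all 8.

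EIF5A encodes the general form of the factor. Its level with ciclopirox was 10.03 in SKNAS, 10.60 in NB1691, 10.45 in SKNBE2 and 9.48 in SKNAS/shHIF1a, against 10.38, 11.37, 11.08 and 9.86 with vehicle in the same order of lines. Every line was lower with ciclopirox, but the groups overlapped, and the vehicle arrays alone spanned 1.51. The mean difference was -0.53 ± 0.13 (limma SE, 4 lines, 95% interval -0.85 to -0.22), a signal ratio of 0.691, with a limma adjusted p of 0.166. The limma SE draws a gene's own spread toward that of all genes tested, so it is not the spread of the 4 differences alone. All 4 EIF5A probe sets were lower in all 4 lines, with mean differences of -0.53, -0.52, -0.50 and -0.38.

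EIF5A2 encodes the second eIF5A, which is low in most adult tissues and is amplified or high in some cancers. Its level with ciclopirox was 7.51 in SKNAS, 7.89 in NB1691, 7.26 in SKNBE2 and 7.88 in SKNAS/shHIF1a, against 6.58, 7.30, 7.41 and 6.10 with vehicle. It was thus higher with ciclopirox in 3 lines and lower by 0.15 in SKNBE2. Of the vehicle arrays, the SKNAS-derived ones were the lowest, and with ciclopirox the range over lines was 0.63, against 1.31 with vehicle. On average the difference was 0.79 ± 0.30 (limma SE, 4 lines, 95% interval 0.04 to 1.53), or 1.73-fold, with a limma adjusted p of 0.267. It came to 0.46 without SKNAS/shHIF1a and 1.10 without SKNBE2. The 2 dimmer probe sets had the same sign as the brightest in each line, with mean differences of 0.39 and 0.46. In size they varied: 0.17 and 0.03 in NB1691, against 0.59 for the brightest, and -0.75 and -0.36 in SKNBE2, against -0.15. With the mean of probe sets the difference was 0.55, at an unadjusted limma p of 0.126 against 0.0414 for the brightest.

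DHPS, which starts the hypusine residue, stood at 9.04, 10.04, 9.51 and 8.81 with ciclopirox in SKNAS, NB1691, SKNBE2 and SKNAS/shHIF1a, against 9.27, 10.47, 9.68 and 9.38 with vehicle. Each line was lower with ciclopirox, by between 0.17 and 0.58. The mean difference was -0.35 ± 0.13 (limma SE, 4 lines, limma adjusted p = 0.249). All 3 DHPS probe sets were lower in all 4 lines. The unadjusted limma p of 0.0332 was 0.0652 without SKNAS, 0.0764 without NB1691, 0.132 without SKNAS/shHIF1a and 0.0411 without SKNBE2. It was 0.0746 with SKNAS and SKNAS/shHIF1a averaged into 1 line.

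DOHH, the hydroxylase, gave a dimmer signal and showed no common direction. It stood at 5.16, 5.52, 5.78 and 4.88 with ciclopirox in the same order of lines, against 5.34, 4.86, 5.70 and 5.33 with vehicle. The SKNAS-derived lines were lower with ciclopirox, by 0.17 in SKNAS and 0.45 in SKNAS/shHIF1a, while NB1691 was higher by 0.67 and SKNBE2 by 0.08. Over the lines the mean difference was 0.03 ± 0.20 (limma SE, 4 lines), with a limma adjusted p of 0.95. The other 2 DOHH probe sets lay below the level filter, with means of 3.05 and 2.89, so this gene rests on 1 probe set.

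ODC1 makes putrescine and is usually the limiting step of the pathway. Its level with ciclopirox was 11.29 in SKNAS, 10.80 in NB1691, 12.24 in SKNBE2 and 11.46 in SKNAS/shHIF1a, against 11.02, 11.22, 12.19 and 11.43 with vehicle. NB1691 was lower by 0.42 and SKNAS higher by 0.27, and the other lines differed by 0.05 or less. Averaged over lines, the difference was -0.01 ± 0.15 (limma SE, 4 lines), with a limma adjusted p of 0.968. Its 95% interval ran from -0.38 to 0.35, so a mean difference within those bounds could not be told from 0. The other ODC1 probe set was near background, with a mean of 3.41.

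AMD1, S-adenosylmethionine decarboxylase, supplies the aminopropyl groups for both later steps. It stood at 8.99, 10.33, 10.39 and 8.61 with ciclopirox in SKNAS, NB1691, SKNBE2 and SKNAS/shHIF1a, against 9.74, 10.60, 10.77 and 9.34 with vehicle. The SKNAS-derived lines were lower by 0.74 and 0.73, and NB1691 and SKNBE2 by 0.27 and 0.39. Its mean difference was -0.53 ± 0.14 (limma SE, 4 lines, limma adjusted p = 0.174). The second AMD1 probe set was also lower in every line, by a mean of 0.59, but with another pattern over lines. It differed by -0.56 in SKNAS and -0.84 in SKNAS/shHIF1a, against -0.05 in NB1691 and -0.9 in SKNBE2.

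SRM, spermidine synthase, makes the polyamine that DHPS consumes. Its level with ciclopirox was 9.17, 9.04, 9.97 and 9.14 in the same order of lines, against 9.78, 9.75, 10.26 and 9.56 with vehicle. NB1691 had the widest gap, at -0.71, and SKNBE2 the narrowest, at -0.28. The average difference was -0.51 ± 0.13 (limma SE, 4 lines, limma adjusted p = 0.171), and SRM has a single probe set.

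SMS, spermine synthase, turns spermidine into spermine. With ciclopirox it stood at 10.63, 11.08, 10.54 and 10.37 in SKNAS, NB1691, SKNBE2 and SKNAS/shHIF1a, against 10.50, 10.94, 10.59 and 10.31 with vehicle. No line differed by more than 0.14, and the mean difference was 0.07 ± 0.11 (limma SE, 4 lines, limma adjusted p = 0.779).

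SAT1, spermidine/spermine acetyltransferase, marks polyamines for export and breakdown, and it had the largest mean difference of the 10. Its level with ciclopirox was 9.73 in SKNAS, 9.36 in NB1691, 8.01 in SKNBE2 and 10.85 in SKNAS/shHIF1a, against 7.79, 7.86, 7.70 and 7.95 with vehicle. The vehicle arrays spanned 0.25 and the ciclopirox arrays 2.84, with no overlap between the groups. The within-line difference was 2.90 in SKNAS/shHIF1a, 1.94 in SKNAS, 1.5 in NB1691 and 0.31 in SKNBE2. The mean difference was 1.66 ± 0.40 (limma SE, 4 lines, 95% interval 0.69 to 2.63), or 3.17-fold, with a limma adjusted p of 0.166. It was 1.25 to 2.11 when each line in turn was left out. Of the genes tested, 52 had a higher mean difference. The other 2 probe sets of SAT1 alone were higher in every line too, by means of 1.58 and 1.64. Another probe set, shared with ZSWIM8, was near background at a mean of 3.34 and was not used.

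OAZ1, ornithine decarboxylase antizyme, binds ODC1 and sends it for degradation. It stood at 12.53, 12.59, 12.59 and 12.56 with ciclopirox in the same order of lines, against 12.69, 12.65, 12.70 and 12.54 with vehicle. On average the difference was -0.08 ± 0.11 (limma SE, 4 lines, limma adjusted p = 0.746), and the second OAZ1 probe set differed by a mean of -0.04.

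**Figure D2:**
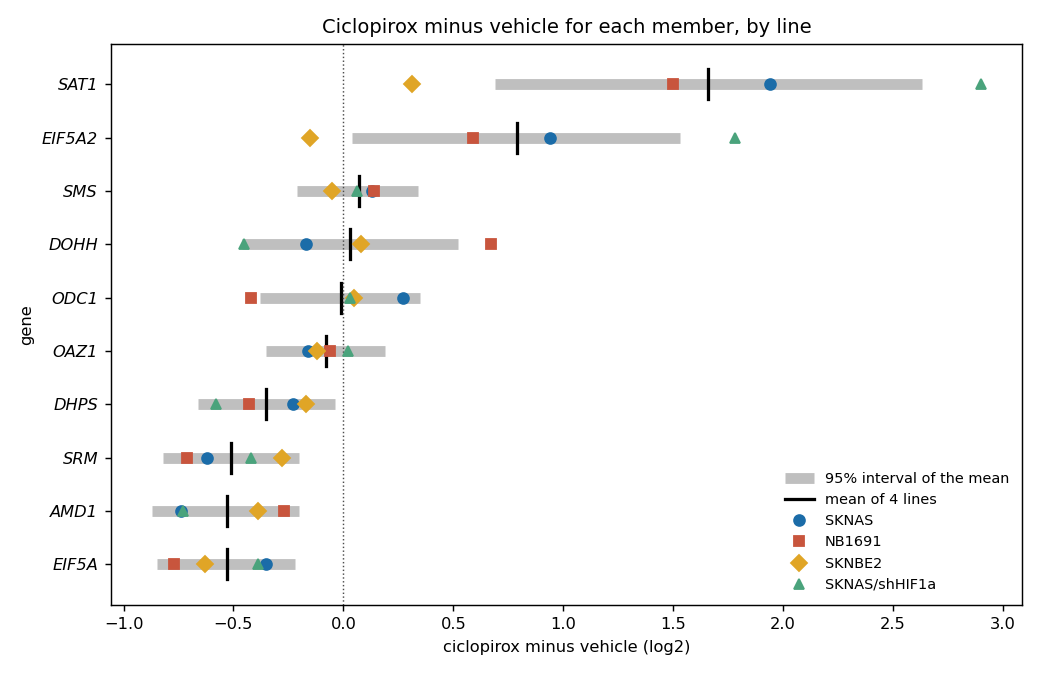
Ciclopirox minus vehicle (log2) is plotted for each member, with 1 point for each of the 4 lines and the mean with its 95% interval from limma. EIF5A, DHPS, SRM and AMD1 lie below 0 in every line and SAT1 above 0 in every line, with SKNBE2 the lowest of the SAT1 points at 0.31.

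**Figure D3:**
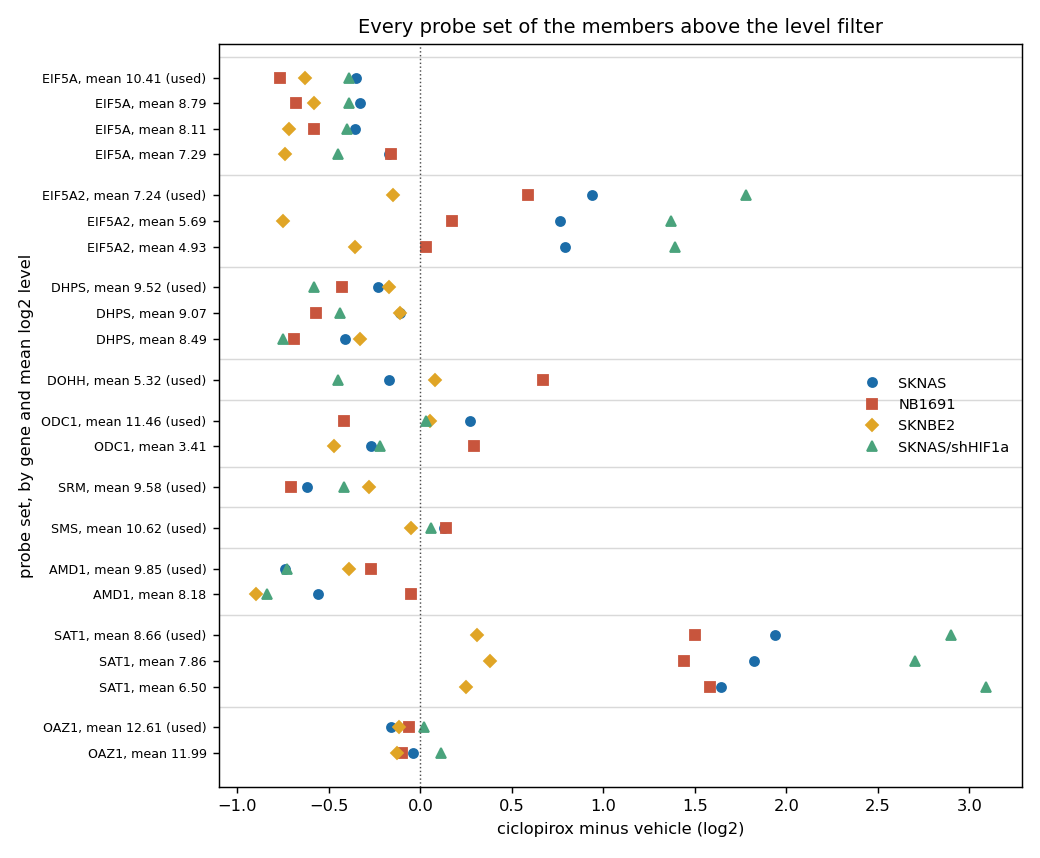
Ciclopirox minus vehicle (log2) is plotted for every probe set of the members above the level filter, with 1 point per line and the mean log2 level beside each gene's name. All points of the 4 EIF5A probe sets lie below 0 and all points of the 3 SAT1 probe sets above 0.

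Taken line by line, with 1 array per treatment and so no test, a difference of at least 1.5-fold was counted 13 times among the 10 members. Each was read on its brightest probe set alone. In SKNAS there were 4 such members (EIF5A2, SRM, AMD1 and SAT1), beside 16.1% of all genes tested. In NB1691 there were 5 (EIF5A, EIF5A2, DOHH, SRM and SAT1), beside 24.1%. In SKNBE2 there was 1 (EIF5A), beside 13.9%, and in SKNAS/shHIF1a there were 3 (EIF5A2, AMD1 and SAT1), beside 23.9%. The median difference over the 10 members was -0.05, beside -0.01 over all genes tested, whose 5th and 95th percentiles were -0.58 and 0.62.

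Among the lines, EIF5A, DHPS and AMD1 were lower in SKNAS and SKNAS/shHIF1a than in NB1691 and SKNBE2. The mean EIF5A level was 9.94 in the SKNAS-derived lines and 10.87 in the others, a difference of -0.94 ± 0.13 (SE) with a limma adjusted p of 0.00218. For DHPS the means were 9.12 and 9.92, a difference of -0.80 ± 0.13 (adjusted p = 0.00373 in limma), which was -0.47 without NB1691 and then no longer passed (adjusted p = 0.0661). For AMD1 they were 9.17 and 10.52, a difference of -1.35 ± 0.14 (adjusted p = 0.000696 in limma). The AMD1 value depended on the probe set: it was -0.86 with the mean of its probe sets, and the dimmer probe set alone stood at 8.25 in SKNAS and 7.75 in SKNAS/shHIF1a, against 7.96 in NB1691 and 8.77 in SKNBE2. All probe sets of EIF5A and DHPS were lower in both SKNAS-derived lines than in either other line. The standard errors come from the spread of both arrays of a line after the treatment difference is taken out, so they leave out the spread between lines of one origin. These 3 of 10 members stand beside 45.8% of all genes tested that passed the same test. On the vehicle arrays alone, where lines are the only replicates, 0 members passed in limma, beside 1.67% of all genes, and 3 had an unadjusted p under 0.05, beside 20.4%. On the ciclopirox arrays alone 0 passed, beside 4.58%, and 2 had an unadjusted p under 0.05, beside 22.9%. The noradrenergic markers also differed by origin, with array medians of 6.93 to 8.21 in the SKNAS-derived lines and 10.84 to 11.51 in the others. The 7 mesenchymal neuroblastoma markers had medians of 8.45 to 9.96 and 3.23 to 4.43 in the same order, and the part of either list in these differences was not tested.

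The remaining members did not pass by origin. SMS was lower in the SKNAS-derived lines by 0.33 (adjusted p = 0.054, limma). It passed with no level filter, the mean of probe sets, an intensity trend or SKNBE2 left out (adjusted p of 0.0171 to 0.0401), and was lower by 0.11 without NB1691. SRM was lower by 0.34 (adjusted p = 0.0736, limma), by 0.70 without NB1691 (adjusted p = 0.0179), and higher by 0.02 without SKNBE2. SAT1 was higher there by 0.85 ± 0.40 (SE) over all arrays, with a limma adjusted p of 0.131. That difference was 1.61 on the ciclopirox arrays alone and 0.09 on the vehicle arrays alone, and 0.47 without SKNBE2 and 0.53 without SKNAS/shHIF1a. EIF5A2, DOHH, ODC1 and OAZ1 had adjusted p-values of 0.141 to 0.727.

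The levels averaged over both arrays of each line were ordered as follows, with neighbours compared in limma. EIF5A was 10.99 in NB1691, 10.76 in SKNBE2, 10.20 in SKNAS and 9.67 in SKNAS/shHIF1a, and no neighbours in that order differed past the threshold (adjusted p of 0.426, 0.0657 and 0.309). DHPS was highest in NB1691, above SKNBE2 by 0.66 (adjusted p = 0.0439). AMD1 in SKNBE2 and NB1691 differed by 0.11 (adjusted p = 0.725, 95% interval -0.36 to 0.59), and NB1691 was above SKNAS by 1.10 (adjusted p = 0.00719), an order that the dimmer AMD1 probe set turned round. ODC1 and SRM were highest in SKNBE2, above the next line by 0.77 and 0.64 (adjusted p = 0.0386 and 0.0424). For EIF5A2, DOHH, SMS, SAT1 and OAZ1, no neighbours in the order differed past the threshold.

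Over the 6 pairs of lines, 17 of 60 member comparisons passed in the same limma fit, with the same limit. SKNAS against NB1691 gave 3 members (EIF5A, DHPS and AMD1), beside 37.7% of all genes, and SKNAS against SKNBE2 gave 3 (ODC1, SRM and AMD1), beside 30.9%. SKNAS/shHIF1a gave 4 against NB1691 (EIF5A, DHPS, SMS and AMD1), beside 37.2%, and 4 against SKNBE2 (EIF5A, ODC1, SRM and AMD1), beside 31.1%. NB1691 against SKNBE2 gave 3 (DHPS, ODC1 and SRM), beside 25.1%. SKNAS/shHIF1a against its parent gave 0 of 10, beside 1.58% of all genes, and the number of arrays limits what that pair can show.

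The response to ciclopirox was set between origins on the 4 within-line differences. No member passed, as against 0.0344% of all genes, and 2 members had an unadjusted p under 0.05 in limma, as against 11.3% of all genes. These were SAT1, with mean differences of 2.42 in the SKNAS-derived lines and 0.90 in the others, and EIF5A2, with 1.36 and 0.22. The SAT1 responses differed by 1.52 ± 0.52 (SE, adjusted p = 0.394) and the EIF5A2 responses by 1.14 ± 0.41 (SE, adjusted p = 0.412). The SAT1 value was 0.92 without SKNBE2, and the EIF5A2 value was 0.72 without SKNAS/shHIF1a. The noradrenergic marker median was 7.50 and 6.93 with ciclopirox, against 8.21 and 8.17 with vehicle, in SKNAS and SKNAS/shHIF1a. It was 10.89 and 10.90 with ciclopirox, against 11.51 and 10.84 with vehicle, in NB1691 and SKNBE2, and the markers' part in these responses was not tested.

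Over the 8 arrays, EIF5A and AMD1 had a Pearson r of 0.92 and EIF5A and DHPS one of 0.87, while SRM and SAT1 had one of -0.83. The 8 arrays are 4 lines measured in pairs, so these values describe line differences as well as treatment. The genes outside the members whose levels were most like EIF5A were NFYB (r = 0.982), TUBA3C (r = 0.972) and SAYSD1 (r = 0.969). Those most like ODC1 were ARRDC1-AS1 (r = 0.980), SLC2A5 (r = 0.980) and RPL4 (r = 0.977). All were picked as the highest r among the 14517 genes tested, members aside, so high values over 8 arrays can arise from the search alone. Several hardly varied: SLC2A5 ran from 3.39 to 3.93, near the level filter, RPL4 from 13.20 to 13.58 and TUBA3C from 5.10 to 5.63. NFYB ran from 8.05 to 9.29, SAYSD1 from 5.52 to 7.37 and ARRDC1-AS1 from 3.85 to 5.14.

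Around the members, the other genes of polyamine breakdown, antizyme control and transport numbered 18, of which 15 were tested. None passed, and at an unadjusted p under 0.05 there were 0 lower and 2 higher of 15, beside the 10.2% and 7.67% of all genes, with a median difference of 0.05. SLC3A2, the heavy chain of several amino acid transporters, was higher with ciclopirox by 0.80 ± 0.15 (SE, limma adjusted p = 0.139) and was higher in all 4 lines. SMOX, spermine oxidase, was chosen after its values were seen and was higher by 0.65 ± 0.13 (SE, limma adjusted p = 0.153), also in all 4 lines. SLC12A8 differed by 1.31 ± 0.71 (SE, limma adjusted p = 0.374) with 1.73 in SKNAS and 3.95 in SKNAS/shHIF1a, against -0.27 and -0.16 in NB1691 and SKNBE2. ARG2, an arginase that makes ornithine, differed by 0.71 ± 0.44 (SE, limma adjusted p = 0.431). It differed by 1.69 in NB1691 and 1.73 in SKNBE2, against 0.09 in SKNAS and -0.68 in SKNAS/shHIF1a.

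The methionine cycle and salvage, which supplies and recycles the substrate of AMD1, had 14 listed genes and 11 tested, with 2 lower and 0 higher at an unadjusted p under 0.05 and a median difference of -0.13, beside the same shares of all genes. MAT2A, which makes S-adenosylmethionine, was lower by 0.65 ± 0.26 (SE, limma adjusted p = 0.279), most in NB1691 at -1.66. ENOPH1 and ADI1, of the salvage route, differed by -0.29 ± 0.11 and -0.31 ± 0.20 (SE, limma adjusted p = 0.261 and 0.435). ENOPH1 was lower in all 4 lines. ADI1 differed by -0.59 in NB1691 and -0.81 in SKNBE2, against 0.08 in both SKNAS-derived lines. The 37 tested of 40 other translation factors had 1 lower and 3 higher at that p, again beside 10.2% and 7.67% of all genes, and a median difference of 0.01. EIF1B was higher by 0.75 ± 0.12 (SE, limma adjusted p = 0.129), EEF1A2 by 0.41, and EIF4E was lower by 0.40. TFRC, the transferrin receptor, whose transcript is stabilised when iron is scarce, was higher in all 4 lines by a mean of 0.95 ± 0.13 (SE, limma adjusted p = 0.121).

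**Figure D4:**
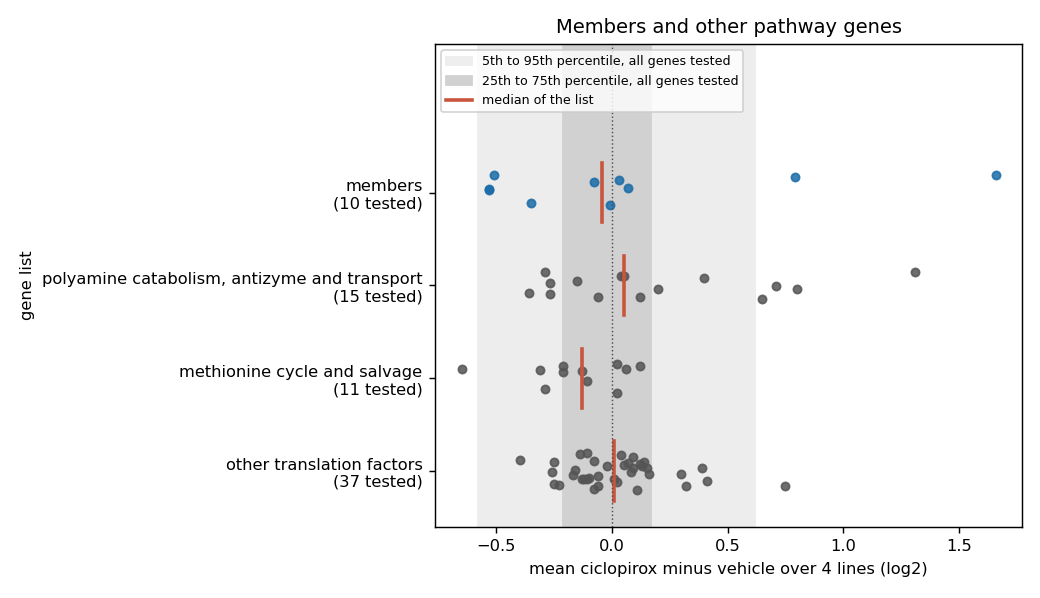
The mean ciclopirox minus vehicle difference (log2) over 4 lines is plotted for every tested gene of the 10 members and the 3 surrounding lists, with each list's median and shaded bands for the middle of all genes tested. The medians lie at -0.05 for the members, 0.05 for breakdown and transport, -0.13 for methionine and 0.01 for the other translation factors, beside -0.01 for all genes.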

How the data were processed

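RNA of the 8 samples was made into biotin-labelled cRNA (RNeasy, 3' IVT Express) for an Affymetrix perfect-match array. The deposited values are log2 signals that the authors computed with RMA, per the submitters' processing notes, without a version. Array medians were 3.47 to 3.52. Of 54715 probe sets, 40914 had 1 gene symbol. A gene's brightest probe set stood for it, and it was tested if its mean reached log2 3.208, the 40th percentile over probe sets.

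limma 3.58.1 in R 4.3.3 was fitted over all genes tested. Cell line was a block for ciclopirox, so that a line's vehicle and ciclopirox arrays formed a pair, as the shared line in the labels gives it. Treatment was a covariate between lines, and the response by origin used the 4 within-line differences. Two-sided p-values were adjusted by the Benjamini-Hochberg method (threshold 0.05). No sign-flip test was used, since with 4 lines its smallest exact p is 0.125. The fits were tested on simulated data. For the comparison by origin the simulated lines shared the same base level, so the spread between lines was not covered. The number of arrays limits the precision.

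The members and lists were chosen with earlier results of these data known. Named were all members, in each list the genes past the test or else the 3 with the largest mean difference, the 3 genes most correlated with EIF5A and with ODC1, and MYC, MYCN, HIF1A and TFRC. Alternatives were other filters (none, the 60th percentile), the mean of probe sets, centring, quantile normalization, an intensity trend, array weights, no block, leaving out or averaging lines, 1 treatment alone, a threshold of 0.1 and a fold of 2.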

Additional observations from a re-analysis of the deposited data

Results flagged for a closer look

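DOHH differed in direction by origin. Ciclopirox minus vehicle averaged -0.31 in the SKNAS-derived lines, both of which were lower, and 0.37 in NB1691 and SKNBE2, both of which were higher. The difference of these responses was -0.69 ± 0.30 (SE), with a limma adjusted p of 0.48, so it did not pass. It was -0.39 without NB1691, where the within-line difference was 0.67 against 0.08 in SKNBE2, and -0.11 with the mean of probe sets. The gene rests on a single dim probe set, since its others lay below the level filter.

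SRM with ciclopirox stood at 9.97 in SKNBE2, apart from the 9.04 to 9.17 of the other lines. It was the 1 line that stood apart among 30 groups of 4 values examined for such gaps, of which chance marks about 1 in 20.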

How the results depend on the processing

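Of 362 member values computed under alternatives, 330 kept their direction and their side of the threshold. No member passed for ciclopirox or for the response by origin under any alternative, so those values differed at most in direction. Of 110 counts, 93 stayed within 1.5 times. No alternative called any gene for ciclopirox against vehicle in limma at 0.05. Members at an unadjusted p under 0.05 numbered 6, but 2 without the cell line as a block (the pairing of arrays), 4 to 6 when a line was left out. They numbered 4 with SKNAS and SKNAS/shHIF1a averaged into 1 line. By origin, 6643 genes passed, 243 on vehicle arrays alone, 665 on ciclopirox arrays alone, and 4378 (without SKNAS) to 5822 when a line was left out. The count of members called by origin was 3, but 0 on either treatment alone, 5 at a threshold of 0.1, and 3 to 5 when a line was left out. The 5 without NB1691 were EIF5A, AMD1, DOHH, ODC1 and SRM, without DHPS. The 5 genes whose response differed by origin became 9 with the mean of probe sets, 13 at a threshold of 0.1 and 0 with any 1 line left out (760 to 2667 at an unadjusted p under 0.05). The 2 members at that unadjusted p became 0 without SKNAS/shHIF1a and 1 without SKNBE2, and stayed 2 without either other line. The 13 within-line differences of 1.5-fold became 4 at a fold of 2, and the 17 pair calls ran from 17 to 22.

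Directions turned for some values, and not only for small ones. The DOHH difference was -0.10 with array weights and -0.18 to 0.19 when a line was left out, and that of ODC1 was 0.01 with quantile normalization, 0.08 with array weights and -0.11 to 0.12 without a line. By origin, EIF5A2 was -0.45 over all arrays and -1.02 on vehicle arrays, but 0.12 on ciclopirox arrays. In the same comparison DOHH was 0.06 on vehicle arrays and OAZ1 0.00 with quantile normalization. With a line left out, ODC1 ran from -0.91 to 0.29 and SRM from -0.70 to 0.02. For the response by origin, leaving out a line gave -0.28 to 0.07 for DHPS, -0.24 to 0.19 for SRM, -0.05 to 0.14 for SMS and -0.07 to 0.11 for OAZ1, which was also -0.01 with arrays centred. The cause was not tested.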
